A study of Gallus gallus with 6 samples.

Results

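The forelimb bud of the chick (Gallus gallus) at Hamburger-Hamilton stage 19 (HH19) was compared with the flank of the same stage, the stretch of body wall between the limb levels that forms no bud. The comparison took every gene that reached 1 CPM (its read count as a share of all reads counted to genes in that library, on the usual CPM scale) in either of the 2 libraries, which gave 11818 of the 17781 genes in the deposited table. These were 2 of the 6 polyA RNA-seq libraries in the series, each of mesenchyme that was dissected from embryos and sequenced without culture, with 1 library for a tissue and stage. The others came from hindlimb at HH18, presumptive forelimb at HH15 (before a bud forms), neck at HH19, and tissue labelled flank and neck at HH19. Strain, sex and the number of embryos in a library are not given in the labels, and no treatment was applied. The flank library carries a 9 in its title but HH19 in its source label, and its stage rests on that label.

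Limb buds grow from the somatic lateral plate mesoderm at 2 levels of the body, and flank is the same tissue at the level between them. At the forelimb level the transcription factor TBX5 switches on FGF10, mesenchymal FGF10 induces the apical ectodermal ridge, and FGFs from the ridge keep the underlying mesenchyme growing. SHH from the posterior margin and the HOXA and HOXD genes of the highest group numbers then pattern the bud, while muscle precursors migrate into it from the somites.

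With 1 library a side no spread between embryos could be estimated, so genes are described by size and no test was made. Forelimb held 7957948 reads and flank 8273762, within a range of 7130877 to 9623046 over the series, and 3 reads corresponded to 0.377 CPM in forelimb and 0.363 CPM in flank. Intervals are exact 95% intervals of the ratio of reads and cover counting error only. The library labelled flank and neck lay nearer to forelimb than to flank in 303 (61.8%) of the genes higher in forelimb. The same share was 67.3% in hindlimb and 35.7% in neck. In the library labelled flank and neck TFAP2A stood at 192 CPM, HOXD12 at 237 CPM and LHX9 at 117 CPM. Its nearness to neck was not measured. It was used in no comparison. The lateral plate and limb mesenchyme factor PRRX1 was read in both libraries, at 263 CPM in forelimb and 430.4 CPM in flank. In whole tissue, fewer cells of a type and less RNA per cell cannot be told apart.

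A gene is called higher or lower below when the 2 libraries were at least 2-fold apart on the log2(CPM + 1) scale. By this rule 490 genes were higher in forelimb (4.15% of those compared) and 1151 were lower (9.74%), while 10177 were less than 2-fold apart. Counts for the gene lists below stand against these shares. At 4-fold the counts were 107 higher and 237 lower, and at 16-fold 14 higher and 22 lower. The median difference over all genes, forelimb minus flank, was -0.10, and 5% of genes lay below -1.36 and 5% above 0.92. The genes higher in forelimb took 6.47% of the reads of forelimb and 2.40% of those of flank, and the genes lower in forelimb took 1.54% of the reads of forelimb and 9.34% of those of flank. For all 490 and all 1151 the counting interval lay beyond a ratio of 1. At this depth the filter and threshold set that outcome, so it adds no support to the calls. Just inside the threshold, with a difference between 1 and 1.1 in size, were 109 higher and 198 lower genes, and just outside it, between 0.9 and 1, were 132 and 198.

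**Figure D1:**
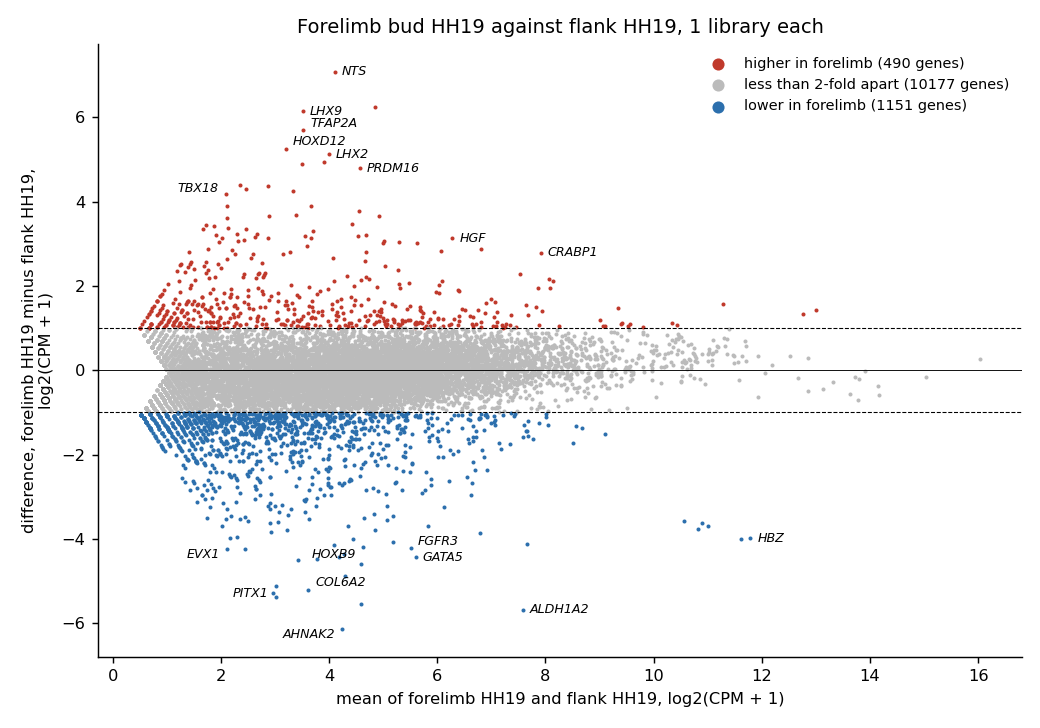
The difference between forelimb HH19 and flank HH19 (vertical axis, log2(CPM + 1), forelimb minus flank) against the mean of both (horizontal axis) for the 11818 genes compared, 1 point a gene. Red points are the 490 genes at least 2-fold higher in forelimb and blue points the 1151 lower; dashed lines mark 2-fold, and the globin genes stand apart at the right, near -4.

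Among the 15 named genes with the largest difference in favour of forelimb, 10 encode transcription regulators. NTS, the precursor of the peptide neurotensin, led with 199 CPM in forelimb and 0.483 CPM in flank. LHX9 and LHX2, LIM homeodomain factors of distal limb mesenchyme that act between ridge and mesenchyme, had 756 and 739 reads in forelimb and 3 and 14 reads in flank. Read ratios were 262 (interval 89.3 to 1273) for LHX9 and 54.9 (32.5 to 101) for LHX2. TFAP2A, an AP-2 factor of ectoderm, neural crest and limb bud, had 81.8 CPM in forelimb and 0.604 CPM in flank, a ratio of 135 (57.7 to 418).

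The T-box factors TBX15 and TBX18, known from limb and skeletal development, had 22.5 and 17.1 CPM in forelimb. In flank TBX15 had a single read, for a ratio of 186 (33.0 to 7391), and TBX18 none, which makes it at least 47.1-fold higher in forelimb against the 3-read floor of that library. PRDM16, a zinc finger regulator, stood at 124 CPM in forelimb and 3.51 CPM in flank. MSX1, a homeodomain factor that BMP signals induce, stood at 48.3 CPM in forelimb and 2.30 CPM in flank, and SOX8 at 23.2 CPM in forelimb and 0.242 CPM in flank. GBX2, a homeodomain factor best known from the midbrain and hindbrain boundary, had 15.7 CPM in forelimb and 1 read in flank. HOXD12 is described with the HOX genes below.

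The remaining 4 genes of the 15 are not transcription factors. HPSE2 (heparanase 2, a heparan sulphate binding protein without heparanase activity) had 60.9 CPM in forelimb and 1.09 CPM in flank. KCNG1, a modifying subunit of voltage-gated potassium channels, stood at 32.04 CPM in forelimb and 0.604 CPM in flank, and TOM1L1, an adaptor of endosomal sorting, at 42.98 CPM in forelimb and 1.33 CPM in flank. The entry named ALC had 82.2 CPM in forelimb and 1.69 CPM in flank.

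Hindlimb HH18 was above both flank and neck for all 15 of these genes, whereas presumptive forelimb HH15 was above both for 5 and lay nearer to forelimb HH19 than to flank for 3. The genes were picked as low in flank, so only the comparison with neck does not reuse the flank values. TFAP2A, for example, stood at 99.97 CPM in hindlimb, 1.54 CPM in presumptive forelimb and 0 CPM in neck. TBX15 stood at 18.4 CPM in hindlimb, 0.421 CPM in presumptive forelimb and 0 CPM in neck. Neck was not uniformly low: PRDM16 had 50.1 CPM and LHX9 25.6 CPM there.

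On the log2(CPM + 1) scale the named genes lower in forelimb were led by AHNAK2, a large scaffold protein. It had 1.26 CPM in forelimb and 158 CPM in flank. The order depends on the pseudocount: at 0.1, EVX1 (-7.48) and HSD17B2 (-7.08) lay ahead of AHNAK2 (-6.86). ALDH1A2, the main enzyme of retinoic acid synthesis in the embryonic trunk, stood at 25.8 CPM in forelimb against 1369.6 CPM in flank, 53.2-fold lower (46.3 to 61.3). ABCC9, a regulatory subunit of ATP-sensitive potassium channels, had 2.51 CPM in forelimb and 164 CPM in flank. HSD17B2, a steroid dehydrogenase, had 2 reads (0.251 CPM) in forelimb and 47.4 CPM in flank, a ratio of 189 (51.8 to 1562) in favour of flank.

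Of the 15 most reduced genes, 3 are collagens. COL6A1 and COL6A2, chains of the microfibril-forming type VI collagen, had 2.89 and 1.01 CPM in forelimb and 83.2 and 73.2 CPM in flank, and COL9A1, a cartilage collagen chain, 0.251 CPM in forelimb and 22.5 CPM in flank. GATA5, a zinc finger factor of splanchnic and cardiac mesoderm, stood at 9.42 CPM in forelimb and 224 CPM in flank. EVX1, a homeodomain factor of posterior mesoderm, had no read in forelimb and 17.8 CPM in flank, at least 47.1-fold lower. FGFR3 had 9.55 CPM in forelimb and 196 CPM in flank. The carbonic anhydrase CA13 had 3.90 CPM in forelimb and 117 CPM in flank, MOXD1, a monooxygenase-like protein, 1.26 CPM in forelimb and 49.9 CPM in flank, and ABLIM1, an actin-binding LIM protein, 3.02 CPM in forelimb and 70.6 CPM in flank. PITX1 and HOXB9 complete the 15 and are described with the limb field and HOX genes.

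Hindlimb lay below both flank and neck for 11 of these 15 genes. The exceptions included PITX1, at 196 CPM in hindlimb, and EVX1, at 17.3 CPM in hindlimb, 0 CPM in neck and 17.8 CPM in flank. Since the 15 genes were picked as high in flank, lying below flank is partly set by that choice. Presumptive forelimb lay nearer to forelimb HH19 than to flank for 8 of the 15. ALDH1A2 was at 62.1 CPM in hindlimb, 531 CPM in presumptive forelimb and 824 CPM in neck. The grown buds were thus low and the other tissues high, with the exception of the library labelled flank and neck, at 12.996 CPM.

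**Figure D2:**
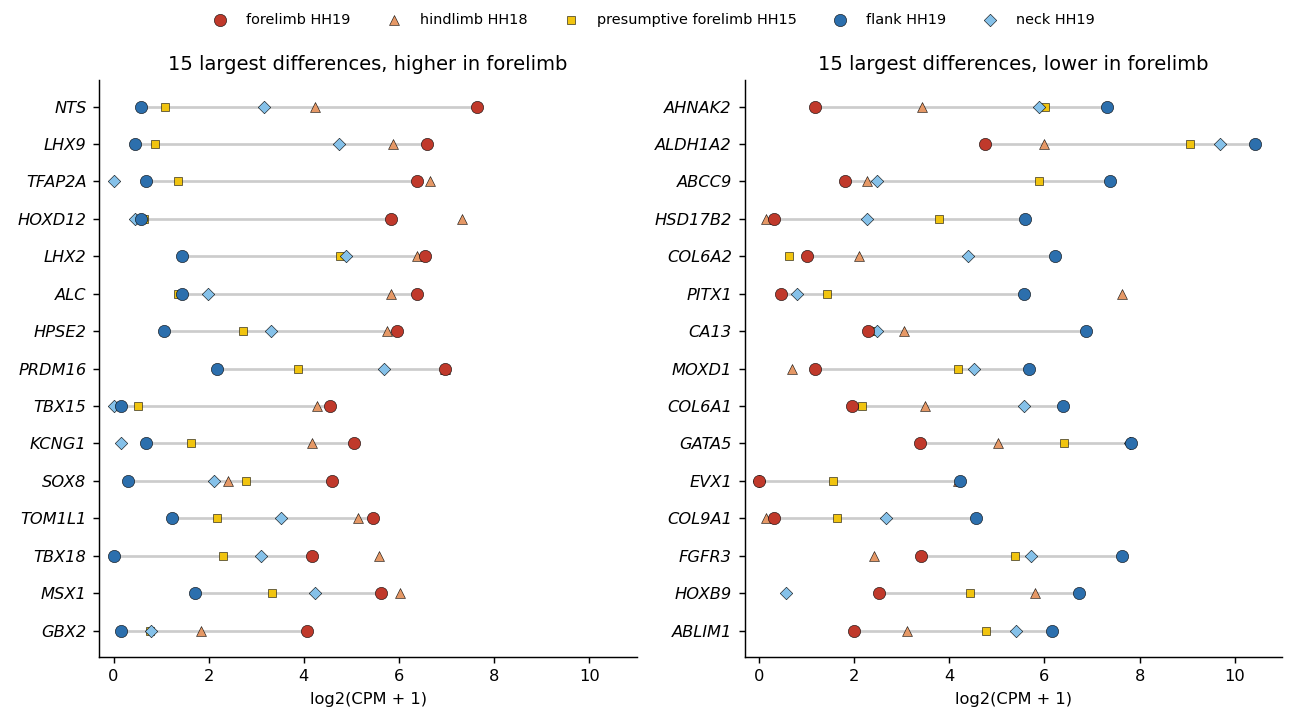
Levels (log2(CPM + 1), horizontal axis) of the 15 named genes with the largest difference in each direction, 1 symbol per library; grey lines join forelimb HH19 (red) and flank HH19 (blue). In the left panel hindlimb HH18 lies near forelimb for most genes and presumptive forelimb HH15 near flank; in the right panel PITX1, HOXB9 and EVX1 are high in hindlimb.

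The limb field list, which holds forelimb and hindlimb genes, differed little in favour of the bud. Of the 10 measured, 1 was higher in forelimb, 3 were lower and 6 were less than 2-fold apart. Their median difference was -0.68 against -0.10 over all genes. The hindlimb selector genes PITX1 and TBX4, given below, were among the 3 lower. FGF10 was the 1 higher, with 13.4 CPM in forelimb and 1.93 CPM in flank, a ratio of 6.95 (4.09 to 12.6). TBX5, the forelimb selector gene, stood at 182 CPM in forelimb and 102 CPM in flank, which is under 2-fold. Its level was 336 CPM in presumptive forelimb and 0.520 CPM in hindlimb, so flank carried TBX5 at a level between the bud and the hindlimb. The Wnt ligand WNT2B, an early forelimb signal in chick, had 0.880 CPM in forelimb and 1.09 CPM in flank, against 29.03 CPM in presumptive forelimb.

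Both hindlimb selector genes were present in flank. PITX1 had 3 reads (0.377 CPM) in forelimb and 46.8 CPM in flank, a ratio of 124 (42.1 to 604) in favour of flank, and it stood at 196 CPM in hindlimb and 0.737 CPM in neck. TBX4 had 2 reads (0.251 CPM) in forelimb and 37 reads (4.47 CPM) in flank, while hindlimb stood at 131 CPM. ISL1, which acts upstream in the hindlimb field, had 0 reads in forelimb and 1 in flank, with 13.6 CPM in hindlimb. MEIS1, a homeodomain factor of the proximal limb and trunk, was also lower, at 85.95 CPM in forelimb and 203 CPM in flank. FGF8, the ridge signal, had 2 reads in forelimb and 3 in flank and was below 1 CPM in both.

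Most of the listed transcription factors of limb bud mesenchyme were higher in the bud. Of 25 measured, 16 were higher in forelimb, 6 were lower and 3 were less than 2-fold apart, and the median difference was 2.47 against -0.10 over all genes. The list was chosen with earlier results of these data known and holds several genes named above. Its counts are therefore partly set by that choice. Hindlimb lay above neck for 15 of the 16 higher factors, and above flank for all 16. The factors were picked as low in flank, so only the comparison with neck does not reuse the flank values. Beside the factors already named, ZBTB16 (PLZF), a zinc finger regulator of proximal limb patterning, had 107 CPM in forelimb and 7.49 CPM in flank. LMX1B, which specifies dorsal identity in the limb, had 70.6 CPM in forelimb and 5.44 CPM in flank, a ratio of 12.98 (9.58 to 18.01). MECOM, a PRDM-family zinc finger factor, had 68.7 CPM in forelimb and 6.65 CPM in flank.

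The SALL zinc finger factors SALL1 and SALL3 stood at 178 and 18.8 CPM in forelimb and 24.2 and 3.87 CPM in flank. TFAP2C had 10.4 CPM in forelimb and 2 reads in flank. SHOX, the short stature homeobox gene of the limb skeleton, had 6.53 CPM in forelimb and 3 reads in flank, and in hindlimb it was at 0.935 CPM. The aristaless-related factor ALX1 had 49.8 CPM in forelimb and 10.5 CPM in flank, with 101 CPM in neck. DLX5, a distal-less factor of the ridge and skeleton, had the smallest difference of the 16, with 8.04 CPM in forelimb and 3.38 CPM in flank; it was under 2-fold when the globin genes and an entry overlapping HBZ were left out of the totals.

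Of the 6 factors lower in forelimb, the 5 described here are TWIST2, TBX2, TBX3, HAND2 and MSX2. TWIST2, of dermal and connective tissue cells, had 15.2 CPM in forelimb and 65.99 CPM in flank. TBX3 and TBX2, T-box factors of limb margins and interlimb mesoderm, had 118 and 24.001 CPM in forelimb and 349 and 66.2 CPM in flank. HAND2, which acts upstream of SHH in the posterior limb and is also expressed in lateral plate, had 134 CPM in forelimb and 311 CPM in flank. MSX2 had 53.5 CPM in forelimb and 113 CPM in flank, and was under 2-fold apart when the scaling followed TMM, DESeq2 size factors or the median of all genes. MSX1 and MSX2 thus differed in opposite directions.

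HOX genes differed in direction by cluster and by group number. Of the 7 HOXD genes measured, 5 were higher in forelimb and 1 was lower. Of the 8 HOXA genes 1 was higher and none lower, and of the 7 HOXB genes none was higher and 3 were lower. The 1 HOXC gene measured was lower. No HOXB gene measured lay above group 9, so HOXB cannot be set beside the other clusters there. At equal group number the clusters differed in some groups. The differences were -0.51 for HOXA3, -1.59 for HOXB3 and 1.20 for HOXD3. They were 0.16 for HOXA9, -4.19 for HOXB9 and -2.88 for HOXD9. Within the HOXD cluster, HOXD9 was lower while HOXD10 to HOXD13 were higher. HOXD13 had 6.03 CPM in forelimb and no read in flank, at least 16.6-fold higher. HOXD12 had 55.7 CPM in forelimb and 0.483 CPM in flank, a ratio of 115 (44.7 to 424). HOXD11 had 8.17 CPM in forelimb and 2 reads in flank, and HOXA11 had 25.5 CPM in forelimb and 1.09 CPM in flank, a ratio of 23.5 (12.1 to 52.0). These 4 genes were at or below 0.561 CPM in presumptive forelimb and neck.

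HOXD10 was high in both libraries, with 397 CPM in forelimb and 149.8 CPM in flank, and its neighbour HOXD9 was lower, with 10.1 CPM in forelimb and 80.1 CPM in flank, 7.97-fold lower (6.31 to 10.2). HOXD3 had 39.1 CPM in forelimb and 16.4 CPM in flank. HOXD4, at 56.3 CPM in forelimb and 27.7 CPM in flank, lay just under the threshold with a difference of 0.998. HOXA9 and HOXA10 were nearly level, at 75.5 and 13.1 CPM in forelimb and 67.3 and 14.5 CPM in flank.

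In the HOXB cluster, HOXB9 had 4.78 CPM in forelimb and 104 CPM in flank, 21.8-fold lower (15.8 to 31.1), while HOXB8 had 128 CPM in forelimb and 175 CPM in flank. HOXB3 and HOXB5 were lower too, at 32.3 and 22.9 CPM in forelimb and 99.4 and 60.3 CPM in flank. HOXC10, a hindlimb and lumbar gene, had 3 reads in forelimb and 3.38 CPM in flank, and it stood at 66.1 CPM in hindlimb. HOXC11, HOXC12 and HOXC13 had no read in either library. HOXA13, the most distal HOXA gene, had 1 read in forelimb and none in flank, against 32.6 CPM in hindlimb.

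**Figure D3:**
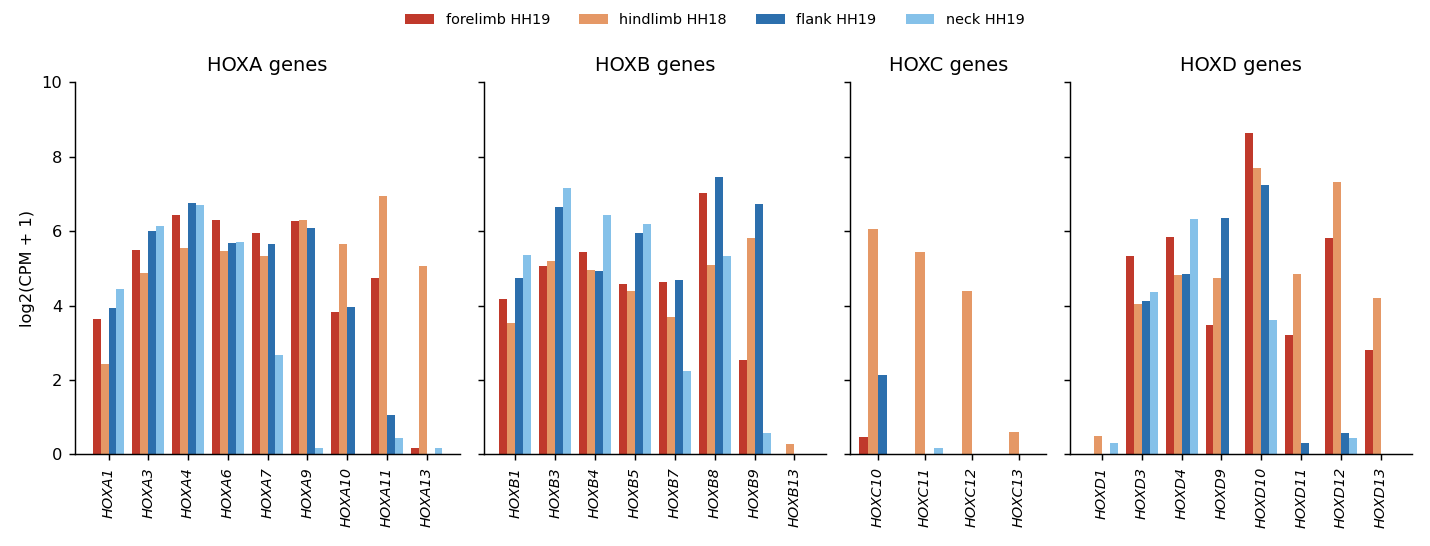
Levels of the HOX genes in the table (log2(CPM + 1), vertical axis) by cluster and group number, with bars for forelimb HH19, hindlimb HH18, flank HH19 and neck HH19. HOXD11, HOXD12, HOXD13 and HOXA11 are low in flank and neck, and HOXB9 and HOXD9 are high in flank. HOXC11 and HOXC12 are seen in hindlimb, where HOXC13 is below 1 CPM.

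Of the 12 genes of Hedgehog signalling measured, 3 were higher in forelimb, a larger share than the 4.15% over all genes, though low in level. Of these, SHH and GREM1 are described here. SHH, the signal of the posterior margin, had 28 reads (3.52 CPM) in forelimb and 2 reads (0.242 CPM) in flank, a ratio of 14.6 (3.67 to 126). GREM1, the BMP antagonist that links SHH with the ridge, had 11.4 CPM in forelimb and 0.725 CPM in flank. DISP1, needed to release Hedgehog from producing cells, was the 1 gene lower, with 23.1 CPM in forelimb and 143 CPM in flank. Another 8 were less than 2-fold apart: the receptor and target PTCH1 had 11.3 CPM in forelimb and 7.01 CPM in flank, GLI1 3.39 CPM in forelimb and 4.23 CPM in flank, and GLI3 112 CPM in forelimb and 107 CPM in flank.

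FGF ligands were mostly low. Of the 6 measured, FGF18 was higher, with 5.40 CPM in forelimb and 1 read in flank. FGF7, a mesenchymal ligand of the epithelial FGFR2 isoform, had no read in forelimb and 10.3 CPM in flank, at least 27.3-fold lower, and FGF12, an intracellular FGF homologous factor, had 7.29 CPM in forelimb and 29.5 CPM in flank. The ridge ligands FGF4 and FGF8 stayed under 1 CPM in both libraries, and FGF17 was not in the table.

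Of 13 FGF receptor and feedback genes measured, 4 were higher in the bud, 4 were lower and 5 were less than 2-fold apart, with a median of 0.05. The 4 higher are feedback genes that FGF signalling induces. DUSP6, a phosphatase that limits ERK, had 77.2 CPM in forelimb and 7.49 CPM in flank, a ratio of 10.3 (7.92 to 13.6). IL17RD (SEF), another inhibitor of FGF signalling, had 92.7 CPM in forelimb and 10.2 CPM in flank, and the Sprouty genes SPRY2 and SPRY4 had 22.2 and 4.15 CPM in forelimb and 2.42 and 0.725 CPM in flank. These 4 were also higher in hindlimb than in neck. FGFR1, the main receptor of limb mesenchyme, was nearly level, with 165 CPM in forelimb and 174 CPM in flank. FGFR2, the receptor of ectoderm and ridge, had 10.9 CPM in forelimb and 53.3 CPM in flank. Lower as well were FGFRL1, a receptor without kinase domain, with 0.754 CPM in forelimb and 2.90 CPM in flank, and the adhesion protein FLRT2, with 34.2 CPM in forelimb and 274 CPM in flank. Markers listed for ridge and surface ectoderm, described below, summed to 74.0 CPM in forelimb and 675 CPM in flank. Several of them, DSP, KRT8 and KRT19, are also expressed by mesothelium. The part of either source in the receptor differences was not tested.

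For Wnt signalling, 2 ligands could be measured. WNT11 had 2.89 CPM in forelimb and 0.483 CPM in flank, and WNT9A had no read in forelimb and 1.33 CPM in flank. Of the 28 receptors, modulators and targets, 3 were higher, 5 were lower and 20 were less than 2-fold apart (median -0.12). Over all genes 4.15% were higher and 9.74% lower, and with TMM factors 3 of the 28 were lower. DKK1, a secreted Wnt antagonist, had 4.65 CPM in forelimb and no read in flank, at least 12.8-fold higher. The R-spondins, which amplify Wnt signals, differed from each other: RSPO2, required for limb outgrowth in mouse, had 12.3 CPM in forelimb and 1.93 CPM in flank, and RSPO3 had 3.02 CPM in forelimb and 33.5 CPM in flank. RSPO1 had 2 reads in forelimb and 2.18 CPM in flank. SFRP1, a Wnt-binding antagonist, had 31.3 CPM in forelimb and 102 CPM in flank. The transcription factor LEF1 differed little, at 152 CPM in forelimb and 189 CPM in flank.

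Among 20 genes of BMP signalling, 4 were higher in forelimb and 7 were lower (median -0.42). All 4 of the higher genes are antagonists or targets: SMOC1, a calcium-binding BMP antagonist, had 34.3 CPM in forelimb and 2.90 CPM in flank, and CHRDL1 (chordin-like 1) had 15.3 CPM in forelimb and 1.81 CPM in flank. Follistatin (FST) had 17 reads in forelimb and none in flank. ID1, a BMP target, had 86.6 CPM in forelimb and 15.95 CPM in flank, while its relative ID2 was lower, with 63.96 CPM in forelimb and 145 CPM in flank.

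The ligand BMP4 was nearly level, at 119.8 CPM in forelimb and 124 CPM in flank, and BMP7 was lower, at 11.7 CPM in forelimb and 38.3 CPM in flank. SMOC2 had 7.67 CPM in forelimb and 91.3 CPM in flank, opposite to SMOC1, and the pseudoreceptor BAMBI had 21.6 CPM in forelimb and 212 CPM in flank.

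Retinoic acid genes showed no single direction, and breakdown enzymes lay on both sides. Of 12 measured, 3 were higher and 4 were lower (median -0.70). CRABP1, a cytoplasmic retinoic acid binding protein, had 629.9 CPM in forelimb and 90.8 CPM in flank, a ratio of 6.94 (6.43 to 7.503), though hindlimb with 101 CPM was under neck with 340.2 CPM. The degrading enzymes CYP26A1 and CYP26C1 had 6.16 and 1.26 CPM in forelimb and 2.30 and 0.121 CPM in flank, and the third enzyme, CYP26B1, was lower, with 3.02 CPM in forelimb and 11.8 CPM in flank. DHRS3, a retinal reductase that retinoic acid induces, had 6.16 CPM in forelimb and 45.0 CPM in flank, and the receptor RXRG had 10.4 CPM in forelimb and 52.5 CPM in flank. ALDH1A2, given above, had the largest difference of the list. ALDH1A2 is also a gene of the coelomic lining, whose marker list summed to 161 CPM in forelimb and 778 CPM in flank; the part of that lining in the ALDH1A2 difference was not tested.

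Cell contact and guidance genes showed no single direction. Of 18 Notch and ephrin genes 3 were higher and 3 were lower, against 4.15% and 9.74% over all genes. The Notch target HEY2 had 6.16 CPM in forelimb and 1.57 CPM in flank, and the ephrin receptors EPHB1 and EPHA3 differed in opposite directions: EPHB1 had 45.5 CPM in forelimb and 17.6 CPM in flank, and EPHA3 had 6.28 CPM in forelimb and 47.4 CPM in flank. EPHA4, a receptor of limb mesenchyme and axon sorting, was under 2-fold apart, at 133 CPM in forelimb and 95.85 CPM in flank. JAG2, a Notch ligand of the ridge, had 9.05 CPM in forelimb and 3.99 CPM in flank and was under 2-fold when globin genes were left out of the totals.

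Of 33 genes for semaphorins, slits, netrins and their receptors, 7 were higher and 9 were lower, against 4.15% and 9.74% over all genes. SEMA5A, a transmembrane semaphorin, had 139.0 CPM in forelimb and 16.2 CPM in flank, and the netrin receptor UNC5D had 10.9 CPM in forelimb and 3 reads in flank. PLXNA2, a semaphorin receptor, had 5.28 CPM in forelimb and 41.6 CPM in flank, and NRP2, its coreceptor, 32.7 CPM in forelimb and 138 CPM in flank. The slits differed among themselves: SLIT1 and SLIT2 were at 23.5 and 22.9 CPM in forelimb and 5.20 and 7.98 CPM in flank, whereas SLIT3 was at 6.16 CPM in forelimb and 29.6 CPM in flank. None of the 9 cadherins was higher and 4 were lower, against 4.15% higher and 9.74% lower over all genes. With TMM factors 1 cadherin was higher. Among the lower, CDH2 (N-cadherin) had 25.4 CPM in forelimb and 66.2 CPM in flank. CDH4 had 7.29 CPM in forelimb and 50.04 CPM in flank.

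**Figure D4:**
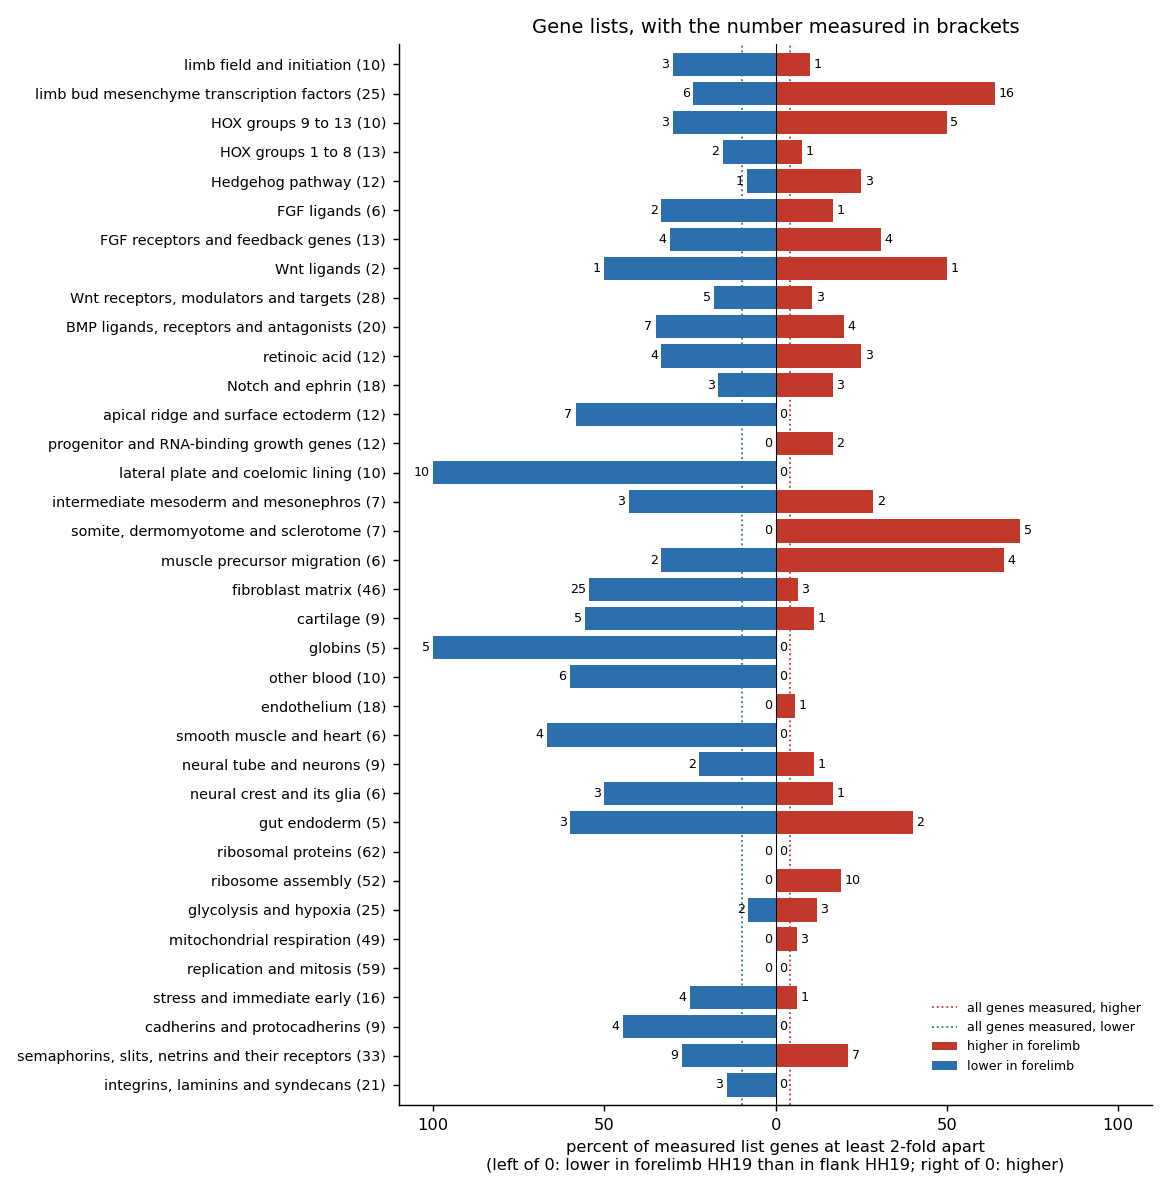
Share of the measured genes of each list that were at least 2-fold higher (red, right of 0) or lower (blue, left of 0) in forelimb HH19 than in flank HH19, in percent, with the number of genes at the bar end and the number measured in brackets. Dotted lines mark the shares over all genes compared, 4.15% higher and 9.74% lower.

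Several markers of the muscle lineage were higher in forelimb. Of 7 measured genes of somite, dermomyotome and sclerotome 5 were higher and none lower, against 4.15% and 9.74% over all genes. PAX3, PAX7 and MYF5 passed the filter through forelimb alone, so the filter partly set that count. With no filter 5 of 11 were higher and none lower. The median difference of the 7 was 1.397, but 0.76 over the 11 genes with no filter and 3.44 with a pseudocount of 0.1. The genes of the list in the table summed to 92.7 CPM in forelimb and 21.3 CPM in flank. PAX3, which marks migrating muscle precursors, had 14.8 CPM in forelimb and 0.846 CPM in flank, a ratio of 17.5 (8.24 to 44.5). PAX7 had 41 reads in forelimb and 1 in flank, and MYF5, the earliest myogenic regulator, 13 in forelimb and 0 in flank. In hindlimb PAX3 was at 1.97 CPM and MYF5 had no read. MYOD1 had 0 reads in forelimb and 3 in flank, and MYOG none in either. SIX4, a homeodomain factor of muscle precursors, had 22.7 CPM in forelimb and 9.55 CPM in flank. EYA1, a transcription cofactor, listed here with intermediate mesoderm, had 40.1 CPM in forelimb and 3.14 CPM in flank.

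Of 6 measured genes for the migration of muscle precursors 4 were higher and 2 were lower, against 4.15% and 9.74% over all genes. The counts were the same with no filter. HGF, which draws precursors into the limb, had 228 CPM in forelimb and 25.3 CPM in flank, a ratio of 9.02 (7.82 to 10.5), and stood at 149.5 CPM in hindlimb and 24.9 CPM in neck. Its receptor MET had 7.04 CPM in forelimb and 3 reads in flank. The chemokine CXCL12 had 11.1 CPM in forelimb and 1 read in flank, and its receptor CXCR4 10.3 CPM in forelimb and 3 reads in flank. GAB1, the docking protein of MET, was lower, with 16.7 CPM in forelimb and 49.7 CPM in flank, and so was the chemokine CXCL14, with 3 reads in forelimb and 5.20 CPM in flank.

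All 10 measured markers of lateral plate and coelomic lining were lower in forelimb, against 9.74% of all genes, with a median difference of -1.93. Some of them, GATA6, WT1 and TCF21 included, passed the filter through flank alone, so the filter partly set that count. With no filter 10 of 13 were lower, with a median of -1.79. The list was chosen with earlier results of these data known, so that choice partly set the count too. The lateral plate factor PRRX1, given above, is not among the 10 and was less than 2-fold apart. GATA6, a partner of GATA5 in splanchnic mesoderm, had 0.628 CPM in forelimb and 13.3 CPM in flank. BNC1, a zinc finger factor of mesothelium, had 6.79 CPM in forelimb and 106 CPM in flank, 15.6-fold lower (11.8 to 20.9). LRRN4, a mesothelial membrane protein, had 6.66 CPM in forelimb and 31.2 CPM in flank, and PODXL (podocalyxin) 15.8 CPM in forelimb and 60.2 CPM in flank. WT1 had 4 reads in forelimb and 3.75 CPM in flank, and TCF21 1 read in forelimb and 2.90 CPM in flank. In hindlimb 7 of the 10 were also at least 2-fold below neck.

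Epithelial genes were lower in forelimb, although both tissues are labelled mesenchyme. Of 12 measured genes of ridge and surface ectoderm none was higher and 7 were lower, with a median of -1.38. DSP (desmoplakin), of desmosomes, had 28.1 CPM in forelimb and 423 CPM in flank. The keratins KRT8, KRT19 and KRT5 had 9.93, 8.67 and 1.38 CPM in forelimb and 118, 67.8 and 27.7 CPM in flank. CDH1 (E-cadherin) was level, at 17.97 CPM in forelimb and 16.2 CPM in flank, and TP63, the factor of basal ectoderm, had 5 reads in forelimb and 15 in flank. The ridge factor SP8 had 0 reads in forelimb and 3 in flank. KRT8, KRT19 and DSP are expressed by mesothelium as well as ectoderm, so the list does not separate the 2 sources.

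Blood was the largest difference by reads. All 5 named globin genes measured were lower, with a median of -3.70: HBZ had 888 CPM in forelimb and 14052 CPM in flank, and HBBA 572 CPM in forelimb and 7449 CPM in flank. Of 10 other blood genes 6 were lower, among them EPB42, a red cell membrane protein, with 1.88 CPM in forelimb and 30.1 CPM in flank, and GFI1B, an erythroid repressor, with 0.628 CPM in forelimb and 6.77 CPM in flank. Among endothelial genes, 17 of 18 were less than 2-fold apart, as were 86.1% of all genes compared. Their median was 0.01, which was below 0 under some other settings. CDH5 (VE-cadherin) had 39.96 CPM in forelimb and 54.6 CPM in flank, and KDR (VEGFR2) 15.8 CPM in forelimb and 22.8 CPM in flank. The exception was GJA4, a connexin of arteries, with 3.64 CPM in forelimb and 0.725 CPM in flank.

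Some defining markers of other tissues that a dissection could carry were absent or nearly so, while other genes of the same lists were not. SOX10 and TH, of neural crest derivatives, had no read in either library, and NGFR, also expressed in limb mesenchyme, had 17.6 CPM in forelimb and 1.09 CPM in flank. EDNRB, an endothelin receptor, had 1.01 CPM in forelimb and 27.7 CPM in flank. Of the 6 neural crest genes measured 1 was higher and 3 were lower, and all genes of that list in the table summed to 189 CPM in forelimb and 441 CPM in flank. The neural tube factors SOX2 and PAX6 had at most 2 reads. Of the 9 neural genes measured 1 was higher and 2 were lower, led by the microtubule-binding DCX, with 9.80 CPM in forelimb and 53.2 CPM in flank, and all genes of the list in the table summed to 969.8 CPM in forelimb and 792.6 CPM in flank. Of 5 gut endoderm genes measured 2 were higher, SHH among them, and 3 were lower. The posterior gut and caudal gene CDX2 had 1 read in forelimb and 5.92 CPM in flank, with 12.3 CPM in presumptive forelimb, and APOA1, of liver and gut, 5.15 CPM in forelimb and 41.2 CPM in flank. The other gene higher was VTN (vitronectin), with 3.14 CPM in forelimb and 0.604 CPM in flank. Of 7 intermediate mesoderm genes measured 2 were higher, EYA1 among them, and 3 were lower. LRP2 (megalin), of nephric and other epithelia, had 4.40 CPM in forelimb and 37.0 CPM in flank, while PAX2 had 0 reads in forelimb and 4 in flank. Of 6 smooth muscle and heart genes 4 were lower, led by ACTA2, with 8.67 CPM in forelimb and 27.7 CPM in flank.

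**Figure D5:**
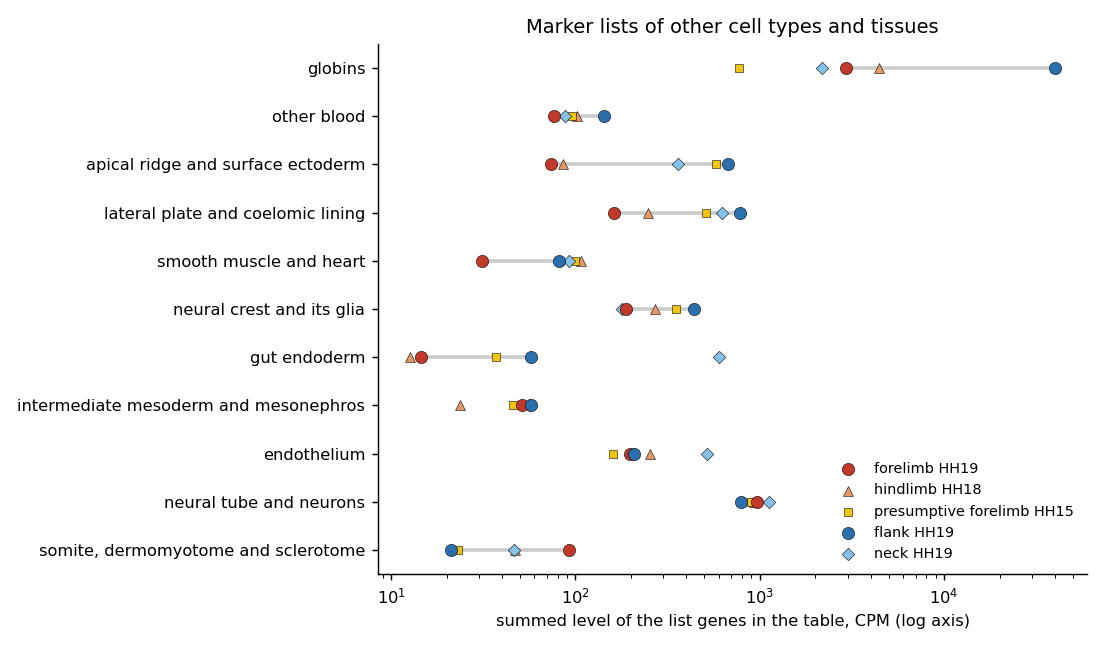
Summed levels of the genes of each marker list found in the table (CPM, log axis), 1 symbol per library, with grey lines joining forelimb HH19 (red) and flank HH19 (blue). The lists of globins, ridge and surface ectoderm (partly shared with mesothelium) and coelomic lining lie left in forelimb. Somite genes lie right, and endothelium and neural tube nearly coincide.

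Extracellular matrix genes of fibroblasts were lower in forelimb in the main. Of 46 measured, 25 were lower, 3 were higher and 18 were less than 2-fold apart, with a median of -1.13. COL1A2, a chain of type I collagen, had 326 CPM in forelimb and 932 CPM in flank, and COL3A1 38.5 CPM in forelimb and 155 CPM in flank. The fibril-regulating COL5A1 had 38.7 CPM in forelimb and 253 CPM in flank, whereas its partner COL5A2 was level, at 199 CPM in forelimb and 202 CPM in flank. COL6A3 had 38.1 CPM in forelimb and 224 CPM in flank. SVEP1, a large adhesion protein of the matrix, had 4.65 CPM in forelimb and 72.3 CPM in flank, and THBS2 (thrombospondin 2) 1.38 CPM in forelimb and 17.4 CPM in flank.

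Hindlimb was at least 2-fold below neck for 20 of the 25 lower matrix genes. It was below flank, by which they were picked, for all 25. The 3 higher genes were SPON1 (spondin 1), with 24.5 CPM in forelimb and 6.28 CPM in flank, NID1 (nidogen 1, of basement membranes), with 80.4 CPM in forelimb and 32.8 CPM in flank, and COL24A1, with 54.0 CPM in forelimb and 23.8 CPM in flank. Of 9 cartilage genes 5 were lower, including COL2A1, with 23.7 CPM in forelimb and 63.8 CPM in flank, and SOX6, with 5.53 CPM in forelimb and 37.2 CPM in flank. SOX9, the factor that starts chondrogenesis, was the 1 higher, with 6.41 CPM in forelimb and 1.93 CPM in flank, a ratio of 3.31 (1.86 to 6.23), and in hindlimb it was at 0.727 CPM.

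Most genes for ribosomes, respiration and replication were less than 2-fold apart, as were 86.1% of all genes compared. None of 62 ribosomal protein genes reached 2-fold, but 56 lay above 0, with a median of 0.35 against -0.10 over all genes. With TMM factors 1 of the 62 was higher. Of 52 ribosome assembly genes 10 were higher and none lower, with a median of 0.66: NOP16 had 98.3 CPM in forelimb and 36.9 CPM in flank, and EMG1 188 CPM in forelimb and 72.6 CPM in flank. Hindlimb lay above neck for all 10, although at least 2-fold for 2, and also above flank, by which the 10 were picked. MYCN, which drives ribosome production in progenitors, had 139.7 CPM in forelimb and 31.7 CPM in flank, and NPM3, a nucleolar chaperone, 535 CPM in forelimb and 137 CPM in flank.

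Of 49 mitochondrial respiration genes 3 were higher, led by COX8A with 220.0 CPM in forelimb and 84.2 CPM in flank, a share near the 4.15% over all genes, and the median was 0.41. None of 59 replication and mitosis genes reached 2-fold (median 0.20). With TMM factors 5 of the 49 respiration genes and 1 of the 59 replication and mitosis genes were higher. For glycolysis and hypoxia the median was 0.03, which took the other sign when globin genes were left out of the totals, and 3 of its 25 genes were higher: NDRG1, with 24.4 CPM in forelimb and 2.66 CPM in flank, CA9, with 40.1 CPM in forelimb and 13.1 CPM in flank, and VEGFA, with 12.3 CPM in forelimb and 4.11 CPM in flank. The list also had 2 lower genes, among them the peptide precursor ADM (adrenomedullin), with 0.251 CPM in forelimb and 3.63 CPM in flank. Of 16 stress and immediate early genes 1 was higher and 4 were lower, against 4.15% and 9.74% over all genes, with a median of 0.25. Among the lower was JUN, with 14.6 CPM in forelimb and 73.0 CPM in flank, and the higher one was ZFAND2A, a heat-induced zinc finger gene, with 30.3 CPM in forelimb and 10.2 CPM in flank.

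The same differences were read in hindlimb HH18 against neck HH19, a limb and a non-limb tissue that share no library with forelimb and flank. They differ from them in body level and, for hindlimb, in stage, so this pair is no replicate. In that pair 2.73% of all 11947 genes compared were higher in hindlimb and 12.4% lower. Of the 490 genes higher in forelimb, 459 were compared there, of which 146 (31.8%) were higher in hindlimb and 33 (7.19%) lower. Of the 1151 genes lower in forelimb, 1061 were compared, of which 556 (52.4%) were lower in hindlimb and 24 (2.26%) higher. The median difference between hindlimb and neck was 0.60 for the genes higher in forelimb and -1.05 for the genes lower, against -0.22 over all genes. In presumptive forelimb HH15 against the same neck library, 3.17% of all genes were higher and 8.85% lower. There 61 (14.4%) of the 425 genes compared among those higher in forelimb HH19 were higher and 60 (14.1%) lower, and 283 (26.4%) of the 1072 compared among those lower in forelimb HH19 were lower and 50 (4.66%) higher.

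List by list, all 4 FGF feedback genes and all 3 Hedgehog genes that were higher in forelimb were also at least 2-fold higher in hindlimb than in neck. All 5 cartilage genes lower in forelimb were lower in hindlimb, while SOX9 was lower there too. All 4 genes of the FGF receptor and feedback list that were lower in forelimb were lower in hindlimb too. For HOX groups 9 to 13 the pair does not follow the calls, since all 13 genes compared there were higher in hindlimb. The 3 HOX genes of these groups that were lower in forelimb, HOXB9, HOXD9 and HOXC10, were thus higher in hindlimb than in neck. Of the 16 higher limb bud factors 12 were at least 2-fold higher in hindlimb than in neck, and ALX1 was lower. CRABP1 and SEMA5A were higher in forelimb than in flank and lower in hindlimb than in neck. Of the 5 higher somite genes 1 was at least 2-fold higher in hindlimb.

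Globin genes took 0.294% of the reads of forelimb and 4.03% of those of flank, with 0.00447% to 0.446% in the remaining 4 libraries. With the 6 globin entries left out of both totals, 454 genes were higher and 1267 lower in forelimb. All 454 were among the 490, and 1145 of the 1151 stayed lower, the globins having been removed. No gene called in one direction was called in the other, an outcome that so small a change of totals fixed in advance. Among the list counts, FGF ligands then had 4 lower genes in place of 2, Hedgehog genes 2 in place of 1, BMP genes 8 in place of 7 and neural crest genes 4 in place of 3. Semaphorins and related genes had 10 lower in place of 9, intermediate mesoderm 4 in place of 3, fibroblast matrix 26 in place of 25 and endothelium 1 in place of 0. Ribosome assembly had 8 higher genes in place of 10, mitochondrial respiration 2 in place of 3, and JAG2 was no longer higher. The limb bud factors kept 16 higher and 6 lower, and HOX groups 9 to 13 kept 5 and 3.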

How the data were processed

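One RNA-seq library per tissue and stage was compared. Reads were aligned to galGal4 with TopHat 1.4.0, per the submitters' processing notes; the read counter, its annotation and any strand setting are not given in the sources used here. The deposited table holds whole-number counts of reads per gene, from the authors. Its CPM columns, by the authors, are those counts divided by each library's total. It also holds the authors' fold columns, a ratio of flank over forelimb CPM, and the authors' p-values, whose test and adjustment are not stated. By the authors' deposited table, p-values below 0.05 were held by 489 of the 490 genes higher here, 1149 of the 1151 lower and 57.3% of the 11810 compared genes with a p. With 1 library a side they cannot hold the spread between embryos.

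CPM were recomputed from the deposited counts. Genes at 1 CPM or more in either library were kept, and forelimb minus flank differences were taken after adding a pseudocount of 1 and taking log2. A difference of 1 or more in size was called. Wilson intervals of CPM and exact conditional binomial 95% intervals of read ratios cover counting error only, as does the 3-read floor. No test was run; the calculation was tested on simulated counts. Python 3.11.15, pandas 2.3.3, scipy 1.17.1 and R 4.3.3 were used. edgeR 4.0.16 (TMM) and DESeq2 1.42.0 served only as scaling alternatives. Other pseudocounts, filters, thresholds and totals were also tried.

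Names came from the table for 8581 entries and from its entry names, descriptions or a RefSeq symbol for others. Where a symbol has several entries, that with the highest mean CPM was used. Named are the 15 genes with a symbol and the largest difference in each direction and members of 36 gene lists, of whose 1088 symbols 765 are in the table and 658 passed the filter. By that rule called members are given for the limb field, limb bud, HOX, Hedgehog and FGF lists, and at most 6 by size of difference for the others (some of all these genes are not reported here), with uncalled members given where their role bears on the list. The genes and lists were chosen with earlier results of these data known. Near-identical copies, such as the globins, can share reads.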

Additional observations from a re-analysis of the deposited data

Results flagged for a closer look

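The library labelled flank and neck HH19, which entered no comparison, lay nearer to forelimb HH19 than to flank HH19 for 14 of the 15 genes with the largest difference in favour of forelimb and for 13 of the 15 with the largest difference in favour of flank. Over all genes called this held for 303 (61.8%) of the 490 higher in forelimb and 750 (65.2%) of the 1151 lower. The same shares were 67.3% and 84.9% in hindlimb, 38.4% and 50.3% in presumptive forelimb, and 35.7% and 22.4% in neck. The share over all genes compared was not taken. The label flank and neck names no limb tissue. HOXD12 stood at 237 CPM in this library, 0.483 CPM in flank and 0.369 CPM in neck. TFAP2A stood at 192 CPM in it, 0.604 CPM in flank and 0 CPM in neck. ALC, at 2.69 CPM, lay between flank (1.69 CPM) and neck (2.95 CPM). The globin entries summed to 44.7 CPM in it, 40270 CPM in flank and 2200 CPM in neck. Whether the label or the dissection differs from what the library holds was not tested.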

How the results depend on the processing

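No gene called in one direction was called in the other under any of the alternatives tried. That outcome was fixed in advance and adds no support. Another pseudocount, filter or threshold cannot turn a call round, and the rescalings were too small to do so. The counts were 292 higher and 588 lower in forelimb with a filter at 10 CPM, and 107 higher and 237 lower at a 4-fold threshold, in both cases because fewer genes can pass. Taking presumptive forelimb HH15 against neck in place of hindlimb HH18 against neck, 61 genes higher in forelimb HH19 were higher there in place of 146, and 283 genes lower in forelimb HH19 were lower there in place of 556; the cause was not tested. Under the remaining alternatives the counts stayed within 1.5 times, between 359 and 722 higher and between 801 and 1613 lower. The split did depend on the scaling: 37.3% of calls were higher with TMM factors, 38.0% with DESeq2 size factors and 39.4% after centring on the median of all genes, against 29.9% with library totals and 26.4% with globin genes left out. These scalings moved the median difference of all genes from -0.10 to -0.01 with TMM and to -0.15 without globins. Leaving out the globins and an entry that overlaps HBZ, an alternative chosen after seeing the data, gave 432 higher and 1279 lower. List medians near 0 (endothelium, FGF receptors and feedback, glycolysis, Notch and ephrin, Wnt ligands and stress genes) and those of FGF ligands and intermediate mesoderm took the other sign under some settings. In size, 11 of the 36 list medians moved with a pseudocount of 0.1, 12 with no filter, 9 at 5 CPM and 13 at 10 CPM: coelomic lining was at -3.84 with a pseudocount of 0.1 in place of -1.93, and ectoderm at -3.45 at 10 CPM in place of -1.38. No paired analysis was possible because each tissue and stage has 1 library, so no replicate could be left out either. At this depth, genes below 1 CPM in both libraries could not be compared.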

Other observations

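Of 21 integrin, laminin and syndecan genes none was higher in forelimb and 3 were lower, against 4.15% and 9.74% over all genes. Their median difference was -0.22, and with TMM factors 1 was lower. The entry for histone H5 (H5_CHICK), the linker histone of nucleated red cells, which is in none of the lists and was chosen after its values were seen, had 2.64 CPM in forelimb and 105 CPM in flank.

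Genes that the deposited table places on chromosome W, which is carried by female birds only, summed to 2461 CPM in forelimb and 830.1 CPM in flank. In the other libraries they summed to 916.5 CPM in hindlimb, 1778 CPM in presumptive forelimb and 1469 CPM in neck. The library labelled flank and neck gave 1677 CPM. Of 25 such genes compared, 8 were higher in forelimb and none lower. The 523 genes compared on chromosome Z had a median difference of -0.37, against -0.10 over all genes. The part of embryo sex in single gene differences was not tested.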
